A study of Mus musculus with 24 samples.

Results

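The axon guidance families of the brain endothelium were taken as all protein-coding genes whose names begin with those of the class 3 to 7 semaphorins, plexins, Eph receptors, ephrins, netrins, Unc5 receptors, Slits and Robo receptors. Of 66 genes with such names, 65 reached a group mean of 10 counts somewhere among the 8 groups and are the members described here, among 17159 genes tested and 45468 listed. They comprised 20 semaphorins, 9 plexins, 8 ephrins, 14 Eph receptors, 2 netrins, 5 Unc5 receptors, 3 Slits and 4 Robo receptors. Just outside the minimum was Ntn5, with a highest group mean of 9.33 counts. Just inside it was Unc5cl, whose highest group mean was 11.7 counts and which matches by name (UNC5C-like) without being one of the established netrin receptors.

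These families are ligands and receptors that attract or repel growing axons and are used in the same way by growing blood vessels. Semaphorins act through plexins, and most class 3 semaphorins need a neuropilin as co-receptor. Netrins act through Unc5 receptors among others, and Slits through Robo receptors. Ephrins and Eph receptors are both anchored in the membrane and signal at contacts between cells, where ephrin-B2 and EphB4 are known as markers of arteries and veins.

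Messenger RNA had been sequenced from mouse brain endothelial cells of E15.5 embryos, of pups at day 5 (P5) or day 9 (P9) after birth and of adults, with 3 libraries for each genotype and stage, stated to be separate biological replicates. Every animal carried the Sox17 flox/flox alleles and received tamoxifen. Those with the Cdh5(PAC)-Cre-ERT2 transgene, a tamoxifen-activated recombinase driven by the promoter of the endothelial cadherin Cdh5, lose the transcription factor Sox17 in endothelial cells (Sox17iECKO, here KO), and those without the transgene are called wt. Embryos were exposed through 2 injections of 1 mg given to the mother on days 11.5 and 13.5 after mating. Pups of P5 and P9 received 100 µg at P1, and adults received 4 injections of 1.5 mg at 6 weeks of age and were used 1 week later. The cells were a fraction depleted of CD45-positive cells and captured with CD31 beads, after dissociation with 1 kit at E15.5 and P5 and another at P9 and in adults. Stage therefore goes with tamoxifen schedule, and in part with kit, and cannot be told apart from them. P5 and P9 shared a schedule but differed in time since tamoxifen and in kit. Genotype goes with the Cre-ERT2 transgene, so loss of Sox17 and presence of the transgene cannot be told apart. In such bulk samples, fewer cells of a type and less RNA per cell cannot be told apart.

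Sox17 itself, in CPM (counts as a share of the TMM-scaled library total), was 78.3 to 108 in wt and 8.34 to 10.6 in KO at E15.5, 227 to 306 and 15.1 to 19.1 at P5, 311 to 354 and 18.9 to 27.2 at P9, and 274 to 318 and 22.5 to 78.2 in adults. The groups did not overlap at any stage. Libraries held 12301779 to 19830600 counts, of which the members took 0.56% to 0.982%. All 15 endothelial markers checked were detected in every wt group, with summed levels of 5324 to 6416 CPM at E15.5, 18768 to 21179 CPM in the pups and 13944 to 14874 CPM in adult wt libraries. Markers of neurons summed to 1866 to 2391 CPM at E15.5 and to 268 to 620 CPM in the later wt libraries, and those of oligodendrocytes to 21734 to 26298 CPM in adult wt against 1050 to 1930 at P9. At P9, KO library 3 stood apart for the members: it was the highest of the 6 P9 libraries for 38 of 65 of them (58.5%), against 25.3% of all genes tested. At E15.5, library 3 of either genotype stood apart, with pericyte marker sums of 719 and 848 CPM against 1566 to 2193 in the other 4. Without that pair, 19 members were called for KO at P9, where 5378 of 17159 genes were. None were called at E15.5, P5 or in adults, where 53, 122 and 21 genes were.

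Guidance genes were called between KO and wt at P9 and at no other stage. At P9, 18 of 65 members (27.7%) passed an adjusted p under 0.05 in the edgeR quasi-likelihood test, where 28% of all genes tested did. Of these, 14 were higher and 4 lower in KO, where 13.5% of all genes were higher and 14.6% lower. The median log2 fold change over the members was 0.30, and 0.02 over all genes. When libraries were scaled to 9 endothelial identity genes instead, the split was 7 higher and 10 lower. Under that scaling 6277 of 17159 genes were called, and the median log2 fold change over all genes was -0.29. At E15.5, P5 and in adults no member passed, where 0.548%, 0.53% and 0.0874% of all genes did (0.42% higher at E15.5, 0.396% higher at P5 and 0.0583% lower in adults). An unadjusted p under 0.05 was reached by 1, 8 and 4 of 65 members, and by 857, 1326 and 604 of all 17159 genes. By the DESeq2 test 0, 1 and 0 members passed at these stages, where 148, 162 and 36 of all genes did. Median log2 fold changes were -0.01 at E15.5, -0.18 at P5 and 0.02 in adults.

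**Figure D1:**
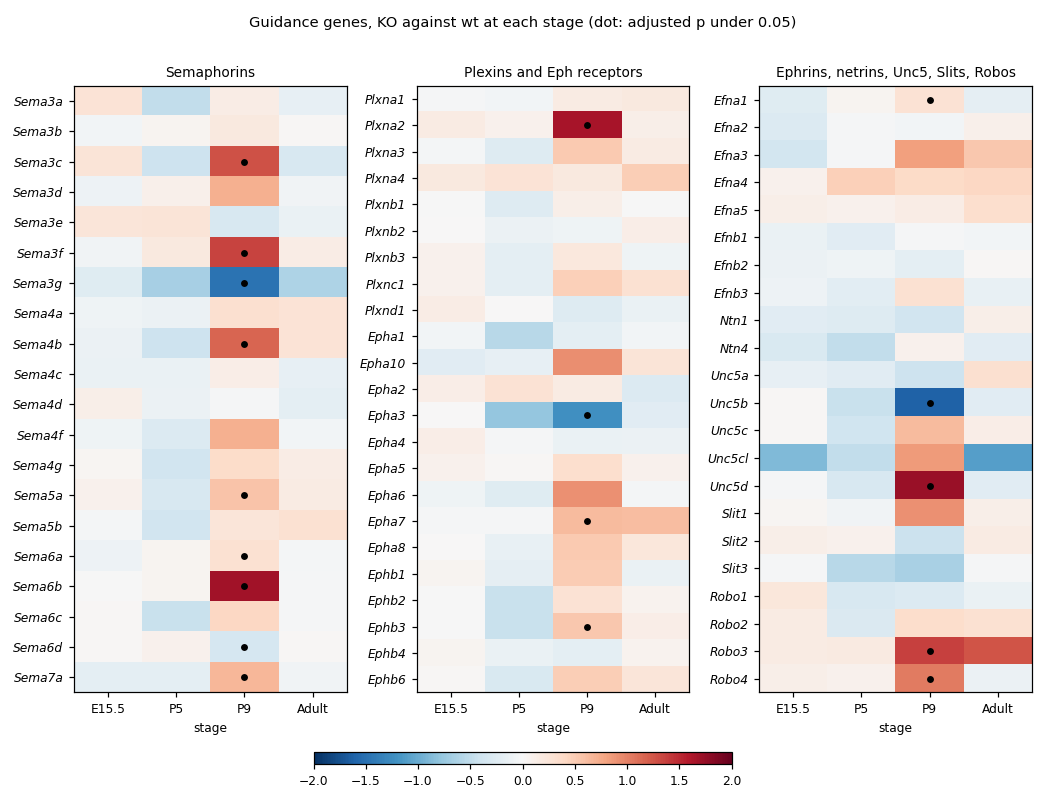
Log2 fold change of KO over wt for the 65 guidance genes (rows, by family) at each stage (columns), in colour; black dots mark an adjusted p under 0.05. All 18 dots fall in the P9 columns, 14 on red (higher in KO) and 4 on blue (lower in KO).

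The strongest fall at P9 was that of Unc5b, the netrin receptor known from endothelial tip cells and arteries. The gene (ENSMUSG00000020099) lies on the minus strand of chr10:60762610-60831581 in build mm10. It gave 401, 369 and 420 CPM in the wt libraries and 113, 88.7 and 187 CPM in the KO libraries, 397 ± 25.7 against 129 ± 51.1 (SD, n = 3), or 32.6% of the wt mean. The groups did not overlap, and KO library 3 lay nearest to wt. The log2 fold change was -1.62 (SE 0.17, adjusted p = 2e-07). Per length, Unc5b was the fifth most abundant member in P9 wt at 65.1 FPKM and ranked 14 of 65 in P9 KO at 19.9 FPKM.

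Sema3g, a secreted class 3 semaphorin known from arterial endothelium, also fell. The gene (ENSMUSG00000021904) lies on the plus strand of chr14:31217860-31230350. Its levels were 143, 138 and 155 CPM in P9 wt and 54.9, 37.2 and 64.1 CPM in P9 KO, which left 35.8% of the wt mean and again no overlap. The log2 fold change was -1.48 (SE 0.17, adjusted p = 5.5e-07).

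Both genes had lower KO means at P5 too, without passing the test. Sema3g gave 195, 190 and 168 CPM in P5 wt against 101, 117 and 132 CPM in P5 KO, a log2 fold change of -0.66 with an adjusted p of 0.088. In adults it gave 226, 222 and 246 CPM against 163, 139 and 152 CPM, with -0.61 and 0.44. No wt library overlapped a KO library at either of those stages, and at E15.5 they overlapped, at 61.6, 87.3 and 81.5 CPM against 80.2, 49.6 and 66.3. Unc5b at P5 was 382, 424 and 363 CPM in wt against 281, 289 and 283 in KO, also without overlap, at -0.45 and 0.44. In adults Unc5b overlapped, at 602 to 647 CPM in wt and 487 to 606 in KO. Libraries at P5 were also separated, likewise without a call, for Efna4 (higher in KO) and for Efnb1 and Epha3 (lower in KO). Whether Sema3g passed at P5 and in adults depended on the test: the 6 libraries of each stage alone gave adjusted p values of 0.0027 and 0.0063, and the DESeq2 test 0.024 and 0.18. For Unc5b at P5 the same tests gave 0.032 and 0.32.

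The other falls at P9 were smaller or in low genes. Epha3, an Eph receptor, was 5.36 to 5.89 CPM in wt and 1.85 to 2.82 CPM in KO (log2 -1.23, SE 0.35, adjusted p = 0.011). Sema6d, a transmembrane semaphorin, was 662 to 693 CPM in wt and 512 to 564 in KO (log2 -0.34, adjusted p = 0.037), and it lost its call when a single P9 library was left out, at worst to 0.10. Beside these falls, markers of pericytes summed to 2949 to 4021 CPM in P9 wt and 774 to 1892 in P9 KO, with 7 of 10 lower and none higher. The sums were 234 to 322 against 77.7 to 168 CPM for smooth muscle (5 of 6 tested lower) and 337 to 446 against 201 to 290 for fibroblasts (5 of 7 tested lower, 1 higher). Of 18 arterial markers, none a member, 9 were lower and 3 higher, summing to 2781 to 2846 CPM in wt and 2286 to 2663 in KO. None of the markers in these 4 lists was at 0 in either P9 group. At P5, 0 of the 10 pericyte markers were called. Their part in the falls was not tested.

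Semaphorins, with 7 members called higher and 2 lower of 20 at P9 (4 and 2 with scaling to identity genes), held 7 of the 14 rises. Sema6b, a transmembrane semaphorin that binds class A plexins, lies on the minus strand of chr17:56123085-56140343 (ENSMUSG00000001227). It gave 46.2, 53.5 and 52.8 CPM in wt and 160, 201 and 129 CPM in KO at P9. Every KO library was above every wt library, and the means differed 3.21-fold (log2 1.68, SE 0.15, adjusted p = 7.3e-09). At the other stages its wt and KO libraries overlapped, with log2 values between -0.02 and 0.05.

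Class 3 semaphorins went in both directions. Sema3f, a secreted ligand of neuropilin 2, was 14.8, 16.2 and 20.9 CPM in P9 wt and 40.2, 54.8 and 37.6 CPM in P9 KO (log2 1.35, SE 0.17, adjusted p = 1.3e-06). Sema3c, a secreted ligand of both neuropilins, was 29, 32.4 and 35.2 CPM in wt and 77.6, 60.7 and 95.7 CPM in KO (log2 1.27, SE 0.19, adjusted p = 1.4e-05). Neither pair of groups overlapped, and both rose where Sema3g fell. Sema3e, the neuropilin-independent ligand of Plxnd1, did not pass at any stage and stayed between 0.304 and 1.59 CPM in the P9 libraries.

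Sema7a, a lipid-anchored semaphorin that can signal through integrins, was the most abundant member per length in P9 wt, at 181 ± 10.9 FPKM (SD, n = 3). It rose from 602, 600 and 657 CPM in wt to 1000, 1077 and 880 CPM in KO (log2 0.67, adjusted p = 8.7e-04). With scaling to identity genes Sema7a did not pass (log2 0.33, adjusted p = 0.068). Sema4b, a transmembrane semaphorin, was 12.8, 16.1 and 14.1 CPM in wt and 36.1, 17.2 and 44.3 CPM in KO (log2 1.17, SE 0.21, adjusted p = 1.8e-04). KO library 2 lay just above the highest wt library there, and libraries 1 and 3 well above it. Sema5a (log2 0.57, adjusted p = 0.0035) and Sema6a (log2 0.30, adjusted p = 0.015), both transmembrane, were also called higher. Sema6a lost its call when a single library was left out, at worst to 0.081, and its value was -0.03 with scaling to identity genes. Under that scaling Sema5a was at 0.24 and not called (adjusted p = 0.35).

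Of the 9 plexins, the semaphorin receptors, 1 was called at P9. Plxna2, a receptor of transmembrane class 6 semaphorins (ENSMUSG00000026640, plus strand of chr1:194618218-194816869), gave 134, 130 and 139 CPM in wt and 406, 405 and 458 CPM in KO. The means differed 3.15-fold with no overlap (log2 1.65, SE 0.23, adjusted p = 7.6e-06). At E15.5 its levels were 242 to 547 CPM in wt and 294 to 619 in KO, with library 3 the highest in both. Plxnd1, the most abundant plexin per length in P9 wt and the receptor of Sema3e, gave 1263, 1224 and 1294 CPM in P9 wt and 1075, 1167 and 920 CPM in P9 KO. Those groups did not overlap, but the difference did not pass (log2 -0.26, SE 0.12, adjusted p = 0.11). With scaling to identity genes it did (log2 -0.60, adjusted p = 7.5e-05).

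Robo4, the Robo receptor of endothelial cells, lies on the plus strand of chr9:37401897-37414023 (ENSMUSG00000032125). It rose from 568, 583 and 614 CPM in P9 wt to 1161, 1353 and 1111 CPM in P9 KO, a 2.05-fold difference with no overlap (log2 1.04, SE 0.12, adjusted p = 3.2e-07). It was the third most abundant member per length in P9 wt (138 FPKM) and the second in P9 KO (262 FPKM). Robo4 is known to bind Unc5b, which went the other way. Robo3, which modulates Slit responses in commissural axons, was 1.47 to 2.62 CPM in wt and 3.97 to 6.48 CPM in KO (log2 1.37, adjusted p = 0.021), and leaving out a single library took its adjusted p to as much as 0.093. With scaling to identity genes Robo3 was not called (log2 1.03, adjusted p = 0.07). Robo1 and Robo2 did not pass.

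None of the 3 Slits, the Robo ligands, and neither netrin passed at P9. Slit2 was 17.4, 17.0 and 17.0 CPM in wt and 13.2, 10 and 14.8 CPM in KO without overlap (log2 -0.43, adjusted p = 0.082). Slit3, at 5.49 to 5.64 and 2.49 to 4.78 CPM, had a log2 value of -0.65 (adjusted p = 0.11). With scaling to identity genes both passed, at -0.75 and -0.95 (adjusted p = 0.013 and 0.028). Ntn1, the canonical ligand of Unc5b, was 58.8, 46.5 and 58 CPM in wt and 29.9, 44.5 and 50 CPM in KO with overlapping groups (log2 -0.39, adjusted p = 0.093, and -0.71 with 0.0076 after scaling to identity genes). Ntn4, a laminin-like netrin of basement membranes, was 9.40 to 12.4 and 8.32 to 14 CPM (log2 0.09). Without KO library 3, Slit2, Slit3 and Ntn1 were called lower, at -0.57, -0.96 and -0.55 (adjusted p = 0.04, 0.037 and 0.027).

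The other Unc5 receptors were lower than Unc5b per length in P9 wt, at 2.12 FPKM or less. Unc5a did not pass at P9 (log2 -0.42, adjusted p = 0.25), but did with scaling to identity genes (log2 -0.73, adjusted p = 0.038). Unc5c passed in neither scaling (log2 0.63 and 0.32, adjusted p = 0.086 and 0.45). Unc5d was called higher at P9 (log2 1.73, SE 0.38, adjusted p = 0.0014) from 8 to 10 reads per wt library and 14, 23 and 67 reads in the KO libraries. KO library 3 gave most of those reads, and the call held when it or any other library was left out (adjusted p at most 0.035). Unc5cl had 2 reads in all 3 E15.5 KO libraries together and 2 in the P5 KO libraries, too few for a fold.

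The contact-dependent pair of arteries and veins showed no difference that passed. Efnb2, the arterial ephrin-B2, was 87.5, 77.1 and 76.7 CPM in P9 wt and 68.4, 54.7 and 86.5 CPM in P9 KO (log2 -0.20, SE 0.20, adjusted p = 0.49). Ephb4, its venous receptor, was 203, 236 and 226 against 191, 204 and 186 CPM (log2 -0.19, SE 0.14, adjusted p = 0.34, and -0.53 with 0.0024 when scaled to identity genes). Both pairs of groups overlapped, and neither gene passed at the other 3 stages.

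Of 8 ephrins 1, and of 14 Eph receptors 2, were called higher at P9, and with scaling to identity genes none of either family was. Efna1, an ephrin that endothelial cells induce under inflammatory signals, was 139, 131 and 122 CPM in wt and 187, 145 and 148 CPM in KO (log2 0.29, adjusted p = 0.038). It lost its call when a single library was left out, at worst to 0.30, and with scaling to identity genes its value was -0.04. Epha7 was 9.45 to 10.8 CPM in wt and 14.7 to 17.3 in KO (log2 0.64, adjusted p = 0.0099). Ephb3 (log2 0.54, adjusted p = 0.029) lost its call without a single library, at worst to 0.13. Epha2 and Epha4, receptors of A-type ephrins, did not pass, with log2 values of 0.16 and -0.13.

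The 47 members not called at P9 had log2 values from -0.65 for Slit3 to 0.93 for Epha10. They were 11 semaphorins (-0.32 to 0.71), 8 plexins (-0.26 to 0.52), 7 ephrins (-0.20 to 0.82), 11 Eph receptors (-0.20 to 0.93), 2 Robo receptors, 3 Unc5 receptors, the 3 Slits and both netrins. Missing the threshold does not show that these genes were alike in both genotypes.

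**Figure D2:**
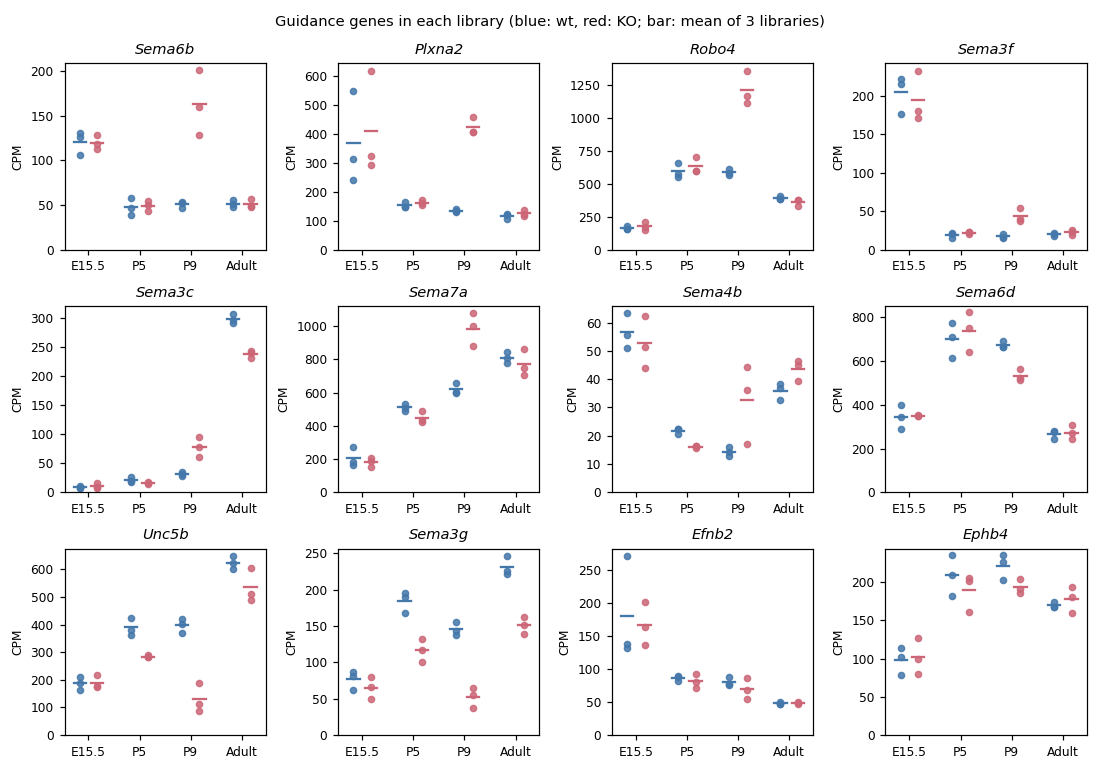
Level (CPM, linear axis from 0) of 12 guidance genes in each of the 24 libraries by stage; blue points are wt, red points KO, and bars the mean of 3 libraries. At P9 all KO points of Sema6b, Plxna2, Robo4, Sema3f, Sema3c, Sema7a and Sema4b lie above the wt points, and those of Unc5b, Sema3g and Sema6d below them, while Efnb2 and Ephb4 overlap.

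The upstream sequences of the members with the clearest changes are shown because Sox17 belongs to a family of factors that bind the letters ACAAT. RefSeq promoters (build GRCm38.p6, 250 bases before to 50 after a start) were matched for 56 of the 65 members, 72 promoters in all. The printed stretches end before the gene start in RefSeq and in the deposited tables. Capitals mark matches, on either strand, to ACAAT or to CCGGAA, the core letters of ETS factors.
Unc5b (chr10:60831582-60831831, minus strand, 250 bases): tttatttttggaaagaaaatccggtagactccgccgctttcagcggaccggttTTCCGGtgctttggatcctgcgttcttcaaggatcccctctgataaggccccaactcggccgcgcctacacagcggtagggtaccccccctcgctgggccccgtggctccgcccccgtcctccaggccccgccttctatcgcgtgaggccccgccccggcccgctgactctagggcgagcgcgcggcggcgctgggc
Sema3g (chr14:31217623-31217859, plus strand, 237 bases): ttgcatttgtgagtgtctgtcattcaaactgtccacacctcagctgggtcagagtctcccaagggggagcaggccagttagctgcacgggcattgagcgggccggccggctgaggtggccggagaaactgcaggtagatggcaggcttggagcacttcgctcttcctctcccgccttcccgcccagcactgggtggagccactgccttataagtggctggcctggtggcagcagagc
Robo4 (chr9:37401722-37401896, plus strand, 175 bases): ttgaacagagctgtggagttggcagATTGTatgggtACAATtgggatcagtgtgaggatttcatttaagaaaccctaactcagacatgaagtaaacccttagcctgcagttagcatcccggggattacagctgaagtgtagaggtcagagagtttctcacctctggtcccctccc
Sema6b (chr17:56140344-56140593, minus strand, 250 bases): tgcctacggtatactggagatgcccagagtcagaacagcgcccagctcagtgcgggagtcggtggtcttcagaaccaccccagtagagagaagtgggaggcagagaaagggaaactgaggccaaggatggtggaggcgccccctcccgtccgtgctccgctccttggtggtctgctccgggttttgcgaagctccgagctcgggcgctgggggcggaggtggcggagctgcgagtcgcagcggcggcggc

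In the Robo4 stretch ACAAT occurs once on each strand, starting 225 and 214 bases before the RefSeq start, and in the Unc5b stretch CCGGAA occurs on the reverse strand, 197 bases before it. The full Unc5b window also holds ACAAT once, on the reverse strand at the RefSeq start itself, outside the printed bases. The windows of Sema3g and Sema6b hold neither set of letters. ACAAT was found in 14 of the 72 member promoters (19.4%) and in 31% of all 32851 promoters of this length, and CCGGAA in 9.72% and 14.9%. The longer AACAAT, which contains ACAAT, was found in 3 of 72 (4.17%) against 10.7%. The TCF/LEF letters CTTTGAT, which effectors of Wnt signalling bind, were found in none of the 72, against 3.73%. A match is a description of the letters in this window only.

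For 12 of 65 members (18.5%) the KO effect differed between the 4 stages, by the interaction test of the same fit, where 13.5% of all genes did. In direct differences, the P9 effect was beyond that at E15.5 for 12 members (10 higher, 2 lower, with 15.8% of all genes called, 7.13% higher and 8.65% lower), beyond that at P5 for 12 (10 and 2, against 15.7%, 7.27% and 8.44%) and beyond that in adults for 11 (9 and 2, against 13.2%, 6.5% and 6.72%). These 3 differences share the P9 libraries. For Sema6b the P9 effect exceeded those at E15.5, P5 and in adults by 1.69, 1.64 and 1.70 on the log2 scale, with adjusted p values of 2.7e-06, 5.8e-06 and 3.8e-06. For Robo4 the differences were 0.93, 0.95 and 1.15 (adjusted p = 3e-04, 2.8e-04 and 2.8e-05). Sema6b and Robo4 thus differed between genotypes at P9 by more than at each other stage.

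Among the falls, the P9 effect of Unc5b lay below those at E15.5, P5 and in adults by log2 values of -1.63, -1.16 and -1.39 (adjusted p = 4.5e-05, 0.0018 and 3.1e-04). For Sema3g these were -1.24, -0.82 and -0.87 (adjusted p = 7.2e-04, 0.02 and 0.015). The effect on each gene was therefore larger at P9 than at P5, where the direction was already the same. Age, time since tamoxifen and kit changed together between P5 and P9 and cannot be told apart.

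Many members not called at P9 were far higher in KO library 3 than in any other P9 library, and 3 of them are given here, chosen after their values were seen. Plxna3, a receptor of class 3 semaphorins in neurons, was 57.4, 67.5 and 62.5 CPM in P9 wt and 55.7, 42.2 and 170 CPM in P9 KO. Slit1, a largely neuronal Slit, was 5.04, 4.53 and 4.36 CPM in wt and 2.86, 4.68 and 18.4 CPM in KO. Sema4f was 10.1, 8.55 and 12.4 CPM in wt and 9.34, 9.42 and 31.8 CPM in KO. In each, KO libraries 1 and 2 lay within or below the wt range and library 3 far above it.

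The same library had the highest neuron marker sum of P9, 558 CPM against 323 and 252 in KO libraries 1 and 2 and 268 to 310 CPM in wt. Without it, 18 members were called at P9, 12 higher and 6 lower, where 4169 of 17159 genes were called. Of these 18 members, 15 were among the 18 called with all libraries. Ephb3, Sema6a and Sema6d lost their calls, Slit2, Slit3 and Ntn1 gained one, and the log2 value of Slit1 went from 0.92 to -0.27. Without KO library 2, which was lowest of the 6 for 26 of 65 members (40%, against 17.7% of all genes), 29 members were called, 24 higher and 5 lower. In that setting 5100 of 17159 genes were called. Robo3 was then lost, and 12 were gained: Efnb3, Epha10, Ephb1, Ephb6, Plxna3, Plxnc1, Plxnd1, Sema4a, Sema4f, Sema4g, Slit1 and Unc5c, of which only Plxnd1 was lower in KO. Astrocyte markers also stood higher in P9 KO, at 943 to 1429 CPM against 594 to 700, with 6 of 9 called. Markers of endothelial tip cells, none a member, summed to 5768 to 5882 CPM in P9 wt and 7264 to 11111 in P9 KO, with 10 of 16 called higher and 1 lower. The part of these cells in these values was not tested.

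**Figure D3:**
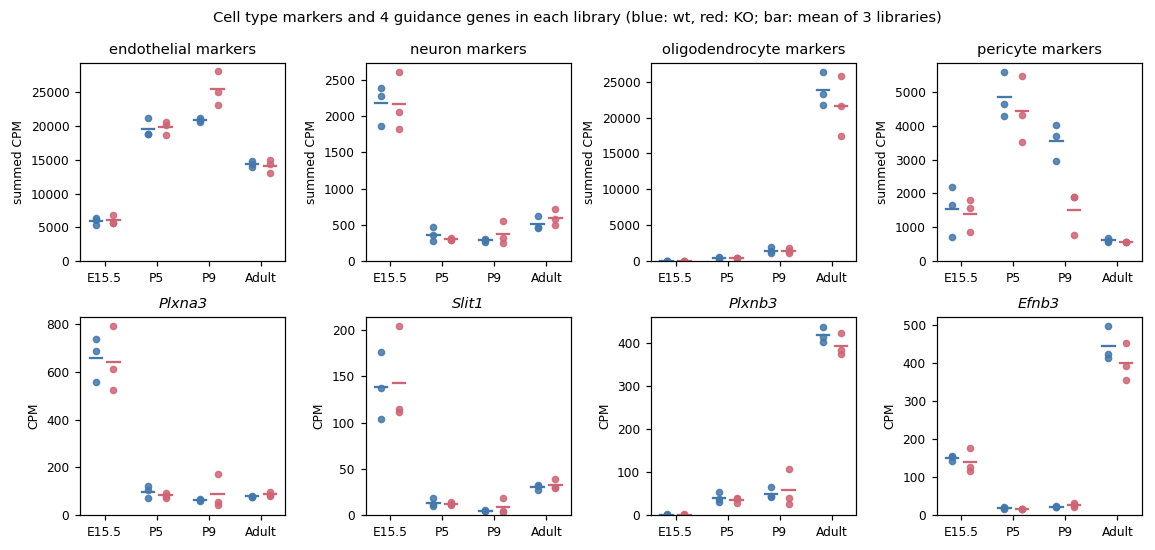
Summed level (CPM) of markers of 4 cell types (upper row) and level of 4 guidance genes (lower row) in each library by stage; blue points are wt, red points KO, and bars the mean of 3 libraries. Neuron markers, Plxna3 and Slit1 are highest at E15.5, oligodendrocyte markers, Plxnb3 and Efnb3 in adults, and 1 P9 KO library stands above the other 5 in Plxna3, Slit1, Plxnb3 and neuron markers.

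The choice of scaling mattered to the rises. Those up to a log2 value of 0.67 lost their calls with scaling to identity genes, as did that of Robo3 at 1.37. Scaling to identity genes moved the median of all genes at P9 from 0.02 to -0.29 on the log2 scale, so values under it are read relative to that shift. Of the 18 calls, 7 rises (Plxna2, Robo4, Sema3c, Sema3f, Sema4b, Sema6b and Unc5d) and 4 falls (Unc5b, Sema3g, Epha3 and Sema6d) were kept in both scalings. Efna1 and Sema6a turned to values just below 0. Summed endothelial markers were 20628 to 21179 CPM in P9 wt and 23098 to 28206 in P9 KO, with 6 of 15 called higher and 3 lower.

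**Figure D4:**
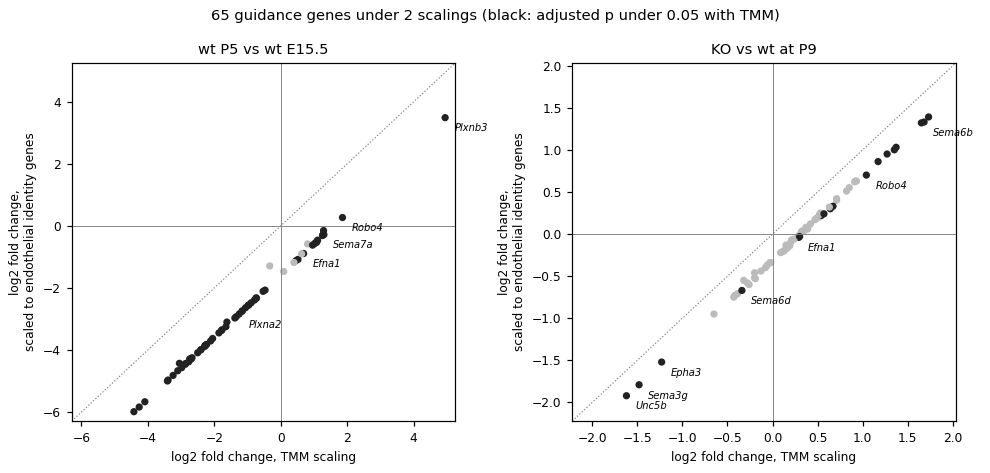
Log2 fold change of the 65 guidance genes with TMM scaling (horizontal) and with scaling to endothelial identity genes (vertical), for wt P5 over wt E15.5 (left) and KO over wt at P9 (right); black points had an adjusted p under 0.05 with TMM, and the dotted line marks equal values. Points lie below the dotted line in both panels, by more in the left one, where 13 of the 15 called rises fall below 0 and only Plxnb3 and Robo4 remain called higher.

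Genes that act with the guidance families without being members were followed in 2 sets. At P9, 1 of 25 co-receptors and partners was called higher and 2 lower, where 13.5% of all genes were higher and 14.6% lower, with a median log2 value of 0.16. Flrt2, a partner of Unc5 receptors, rose (log2 0.46, adjusted p = 0.047). Met, the HGF receptor and a partner of plexins, fell (log2 -1.57, adjusted p = 0.0093), as did Plxdc1 (log2 -1.21, adjusted p = 0.0087). Plxdc1 was 34.7 to 51.1 CPM in wt and 8.75 to 27.2 CPM in KO.

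Nrp1 and Nrp2, the neuropilins that bind class 3 semaphorins, did not pass. Nrp1 was 403, 389 and 424 CPM in P9 wt and 353, 384 and 315 CPM in P9 KO (log2 -0.21, adjusted p = 0.12), and Nrp2 was 144, 135 and 152 against 129, 130 and 98.7 CPM (log2 -0.27, adjusted p = 0.15). Neither pair of groups overlapped.

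Of 59 intracellular effectors 10 were called higher and 5 lower at P9, with a median of 0.08, a share near the 28% called among all genes. Srgap2, a GTPase-activating protein that binds Robo receptors, was 364, 380 and 384 CPM in wt and 576, 535 and 560 in KO (log2 0.57, adjusted p = 3.1e-05). Vav3, an exchange factor downstream of Eph receptors, rose by 1.14 on the log2 scale (adjusted p = 1.1e-04). None of the 84 genes of both sets passed at E15.5, P5 or in adults.

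In wt, most guidance genes had their highest level before birth. By mean FPKM, which compares levels per length, 41 of 65 members (63.1%) were highest at E15.5, 6 at P5, 4 at P9 and 14 in adults. Of all genes tested, 37.8% were highest at E15.5, 13.9% at P5, 17.7% at P9 and 30.6% in adults, and the difference was not tested. At E15.5, 39 members had 10 FPKM or more, and 19, 15 and 23 did at P5, P9 and in adults. The median over the members was 13.4 FPKM at E15.5, 2.59 at P5, 2.54 at P9 and 4.66 in adults. All 3 Slits, 10 of 14 Eph receptors and 7 of 9 plexins peaked at E15.5, against 10 of 20 semaphorins. Neuron markers also summed highest at E15.5, to 1866 to 2391 CPM against 268 to 620 CPM in later wt libraries. Endothelial markers summed lowest there, to 5324 to 6416 CPM. The part of the cell mixture in these peaks was not tested.

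**Figure D5:**
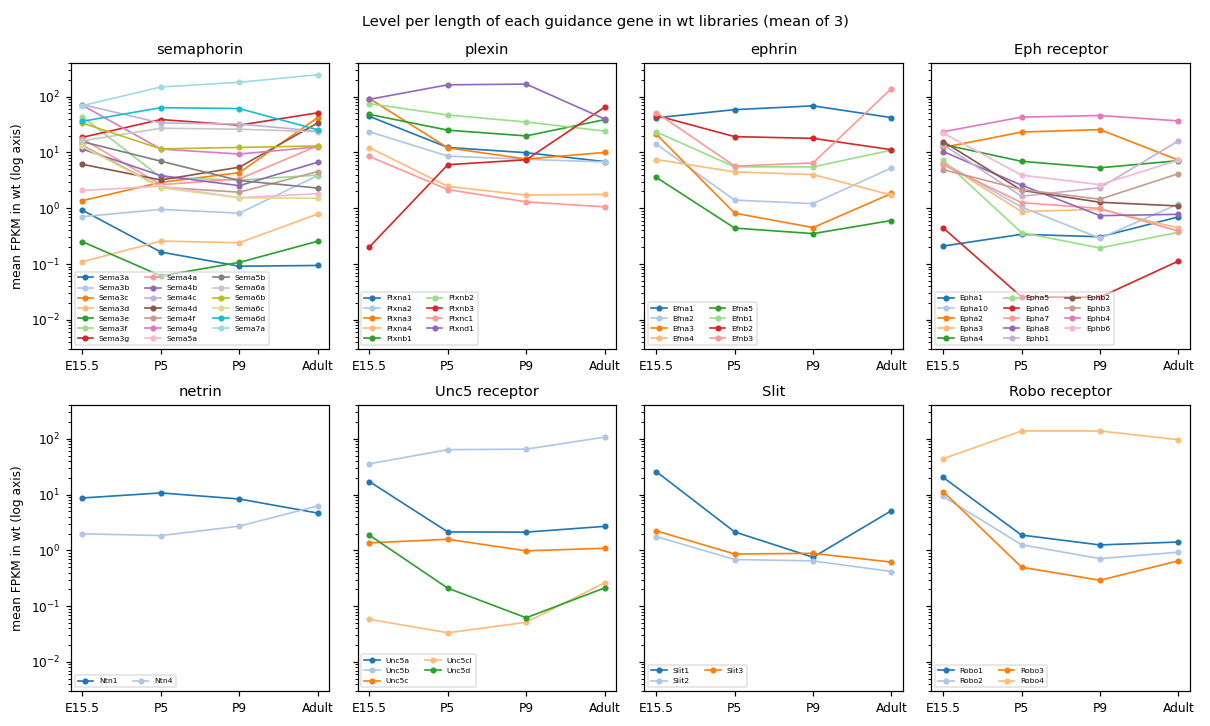
Mean FPKM of 3 wt libraries (log axis) for each guidance gene, joined across the 4 stages, in 1 panel per family. Most lines are highest at E15.5, whereas Sema7a, Unc5b, Efnb3 and Plxnb3 end highest in adults and Plxnd1 is lowest there.

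From E15.5 to P5, 60 of 65 members (92.3%) differed, 15 higher and 45 lower, where 66.6% of all genes were called, 36.2% higher and 30.4% lower. With scaling to identity genes the split was 2 higher and 57 lower, and 13 of the 15 rises turned to negative values. Under it 14432 of 17159 genes were called. That scaling moved the median of all genes from 0.09 to -1.44. All 45 falls held in both scalings.

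Among the falls, Efna3 had the largest, with 41.0, 37.8 and 62.4 CPM at E15.5 and 1.66, 2 and 2.55 CPM at P5 (log2 -4.42, SE 0.31, adjusted p = 4.1e-11), where an antisense gene overlaps it. Robo1, a Slit receptor of axons, went from 125, 96.5 and 199 CPM to 17.5, 11.6 and 15.1 CPM (log2 -3.24). Slit1 went from 137, 104 and 176 to 11.8, 9.56 and 18.1 CPM (log2 -3.39), and Sema3f from 215, 177 and 222 to 20.4, 15.8 and 21.3 CPM (log2 -3.41). None of these groups overlapped. Efnb2 also fell, from 138, 132 and 272 to 89.2, 88.9 and 82.3 CPM (log2 -1.06, adjusted p = 7e-05). Over the same interval all 11 neuron markers fell and all 15 endothelial markers rose, and the part of the cell mixture in these values was not tested. Without both E15.5 libraries numbered 3, 58 members were called, where 11068 of 17159 genes were.

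The members that rose from E15.5 to P5 with TMM scaling included several known from endothelium. Robo4 rose from 155, 177 and 156 to 574, 656 and 549 CPM (log2 1.86, SE 0.12, adjusted p = 7.4e-12), and with scaling to identity genes still by 0.27 (adjusted p = 0.015). Sema7a, Unc5b, Sema3g, Plxnd1 and Ephb4 rose by 1.30, 1.06, 1.26, 1.07 and 1.09 with TMM scaling, but with scaling to identity genes their values were -0.28, -0.54, -0.31, -0.53 and -0.51. Relative to the identity genes, then, Robo4 rose and Plxnd1, Ephb4 and Unc5b fell.

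Between P5 and P9, when the dissociation kit changed, 7 of 65 wt members (10.8%) were called, all lower, where 5.12% of all genes were called, 2.67% higher and 2.45% lower. They were Epha8 (log2 -1.76), Epha10 (-1.79), Unc5d (-1.57), Slit1 (-1.47), Sema5b (-1.13), Plxnc1 (-0.72) and Sema5a (-0.68). Slit1 reached its lowest level at P9, 4.36 to 5.04 CPM. The number of calls was 3 to 6 when a single library was left out, 11 by the DESeq2 test and 24 with the 6 libraries alone. Of all 17159 genes, 305 to 630, 1293 and 2063 were called in these settings.

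From P9 to adult, 43 of 65 members (66.2%) differed, 27 higher and 16 lower, where 61.1% of all genes were called, 30.9% higher and 30.3% lower. With scaling to identity genes the split was 39 and 5, and that scaling moved the median of all genes from 0.02 to 0.57. Under it 11200 of 17159 genes were called. The largest rise was that of Efnb3, ephrin-B3, known from myelin and neurons, from 20.3, 23.1 and 21.2 CPM to 422, 414 and 496 CPM (log2 4.36, SE 0.16, adjusted p = 6.4e-16). Plxnb3, a plexin known from oligodendrocytes, rose from 41.3, 64.8 and 43.8 to 401, 437 and 413 CPM (log2 3.06), and Sema4d, also known from oligodendrocytes, from 27.3, 46.3 and 36 to 217, 205 and 227 CPM (log2 2.56). All 9 oligodendrocyte markers rose over this interval, with a median log2 value of 4.54, and their part in these rises was not tested.

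Sema3c also rose, from 29, 32.4 and 35.2 to 297, 306 and 292 CPM (log2 3.21, SE 0.20, adjusted p = 1.9e-12), to above the 60.7 to 95.7 CPM of P9 KO. Unc5b and Sema3g had their highest wt levels in adults, at 602 to 647 and 222 to 246 CPM. Plxnd1 fell furthest, from 1224 to 1294 CPM at P9 to 260 to 306 CPM (log2 -2.15, SE 0.12, adjusted p = 6.4e-13), Epha2 from 121 to 132 to 31.3 to 36.6 CPM (log2 -1.88) and Sema6d from 662 to 693 to 246 to 282 CPM (log2 -1.33). Over the same interval 11 of 15 endothelial, 12 of 16 tip cell and 10 of 13 venous markers fell, as did all 10 pericyte markers, whose sum went from 2949 to 4021 CPM to 557 to 682 CPM. Their part in these falls was not tested. From E15.5 to adult, 57 of 65 members (87.7%) differed, 15 higher and 42 lower, where 69.6% of all genes were called, 35.2% higher and 34.3% lower. With scaling to identity genes the split was 10 and 50. Under it 13879 of 17159 genes were called, and the median of all genes was -1.04. By level per length, the leading wt members were Plxna3 at E15.5 (92.3 FPKM), Plxnd1 at P5 (163 FPKM) and Sema7a at P9 and in adults (181 and 247 FPKM).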

How the data were processed

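Strand-specific libraries of polyadenylated RNA were made from CD31-captured brain fractions and read on an Ion Proton sequencer, with 3 libraries for each of 2 genotypes at 4 stages. The authors deposited, per the file headers, raw counts of reads on 1 strand per gene, an FPKM column (counts scaled for gene length and library total) and a TPM column. The FPKM values equal the count over gene length and library total, and the deposited TPM values were not used. The submitters' processing notes list STAR 2.5.3a, SAMtools 1.5, Trim Galore 0.4.1, FastQC and build mm10, without roles. The annotation release and the counting rule are not given in the sources used here.

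Libraries held 12301779 to 19830600 counts, so 3 counts, the limit set for a count of 0, are worth 0.151 to 0.244 CPM, for counting error only. The 17159 genes that reached a group mean of 10 counts in any of the 8 groups entered the test. The edgeR 4.0.16 quasi-likelihood test (R 4.3.3) used TMM scaling, 1 mean per group over all 24 libraries, 16 residual degrees of freedom and a prior count of 2. The two-sided p values were adjusted after Benjamini and Hochberg over all 17159 genes, and a gene is called at an adjusted p under 0.05. The code was tested on simulated counts.

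The members, gene lists and tests were chosen with earlier results of these data known. Members were named by a rule. It took the largest called rises and falls of each contrast (8 each for KO against wt, 6 each between wt stages) with a group mean of at least 50 counts, the 10 highest by mean FPKM, and 20 always-named members. It also took Nrp1, Nrp2 and up to 3 called genes per pathway list and KO contrast. Other names were chosen after their values were seen. Alternatives were DESeq2 1.42.0 (size factors and test), robust limma-trend (limma 3.58.1), no count filter, the 6 compared libraries alone, scaling to 9 endothelial identity genes (Pecam1, Cdh5, Tek, Tie1, Erg, Esam, Eng, Egfl7 and Icam2), a replicate block, leaving out each library, and dropping library 3 of each E15.5 genotype. The differences of the KO effect between pairs of stages and 2 of the 4 promoter motifs were added after seeing the data. Replicate numbers were not taken to pair the libraries, since at no stage did every same-numbered pair of libraries deviate together with a correlation over 0.1 (0.097 to 0.588 at E15.5).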

Additional observations from a re-analysis of the deposited data

Results flagged for a closer look

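The difference between KO and wt varied between the 4 stages for 12 guidance genes. This is by the interaction term of the edgeR fit over all 24 libraries, with p values adjusted over all genes tested. For Sema6b the adjusted p was 2e-06, for Robo4 6.9e-05, for Unc5b 0.00015, for Sema3c 0.00018 and for Sema3f 0.00031. It was 0.0018 for Plxna2, 0.0024 for Sema4b, 0.0041 for Sema3g and 0.0071 for Sema7a. For Sema5a it was 0.018, for Unc5d 0.019 and for Efna1 0.043. In each of the 12 the largest absolute KO effect was that at P9.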

How the results depend on the processing

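Counts of called guidance genes stayed within 1.5 times the main count in 127 alternative results and moved further in 16. That tally takes totals only, whatever the direction, and includes counts that stayed at 0. Scaling to identity genes is within it at P9, with 17 calls, where 6277 of 17159 genes were called. The split there went from 14 higher and 4 lower to 7 and 10. At P9, the 18 calls became 29 without KO library 2, and 14 to 29 when any single library was left out. Over all genes the calls were 5100 and 3650 to 5100. With no count filter the interaction count went from 12 to 27, and KO calls from 0 to 2 at P5 and from 0 to 2 in adults. Among all genes then tested, 3119, 322 and 69 were called. With the 6 compared libraries alone the KO calls at P5 and in adults were 2 and 1, against 205 and 40 of all genes. The DESeq2 test gave 1 at P5, against 162. The 7 calls of wt P9 against P5 became 11 by the DESeq2 test, 25 with no filter, 24 with the 6 libraries alone, 11 without both E15.5 libraries numbered 3, and 3 to 6 with a single library left out. Over all genes the calls in these settings were 1293, 1579, 2063, 1286 and 305 to 630. The cause of these changes was not tested.

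Correlations of deviations between same-numbered libraries lay between 0.097 and 0.588 at E15.5, between -0.009 and 0.152 at P5, between -0.118 and 0.058 at P9, and between 0.008 and 0.098 in adults. Of 6 libraries per stage, 4 correlated best with their own number at each stage but P9, where 1 did, a hint from the data that falls short of pairing. A block for replicate number within each stage moved the P9 KO count to 20, where 4945 of all genes were called. For the wt contrasts the block joined same-numbered libraries across stages, which come from different animals. With it, wt P9 against P5 moved to 11 calls, against 961 of all genes.

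Scaling to endothelial identity genes turned the sign of 24 named values that were called under either scaling. Values that turned without a call under either are not listed. At P9 KO these were Efna1 -0.04 and Sema6a -0.03. For wt P5 against E15.5 they were Efna1 -0.89, Epha2 -0.46, Ephb4 -0.51, Ntn1 -1.08, Ntn4 -1.47, Plxnd1 -0.53, Sema3b -0.90, Sema3c -0.29, Sema3d -0.15, Sema3g -0.31, Sema5a -1.12, Sema6a -0.62, Sema6d -0.57, Sema7a -0.28 and Unc5b -0.54. For wt adult against E15.5 they were Efna1 -0.92, Ephb1 -0.72, Ephb4 -0.28 and Sema6a -0.38, and for wt adult against P9 Ephb4 0.19, Sema4c 0.08 and Sema6a 0.36. Depth limits Unc5cl, Sema3e and Epha6, and reads of Epha6 may be shared with Gm4660, a pseudogene on the same strand. The genes that overlap Epha1 and Efna3 lie on the opposite strand, and the counts are of reads on 1 strand. Leakage between strands was not tested.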

Other observations

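Robo3 in adults gave 20, 6.5 and 4.78 CPM in KO and 5.01, 5.48 and 2.57 CPM in wt, a log2 value of 1.26 (adjusted p = 0.81) that 1 KO library carried. At P5, 47 of 65 members had a KO value below 0 and 18 above it, without a call, and at P9 the numbers were 19 and 46. The median log2 value over all genes was 0 at P5 and 0.02 at P9. With scaling to identity genes the P9 medians were -0.02 for the members and -0.29 for all genes. At P9, KO library 3 was the highest of the 6 libraries for 38 of the 65 members.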
